A study of Mus musculus with 3 samples.

Results

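Malat1, Neat1 and Kcnq1ot1 are long non-coding RNAs that stay in the nucleus. They were followed here through the cells of a Cd11b sort from the mouse brain, as 3 of the 27998 genes in the deposited count table, matched by symbol. They were chosen by name with earlier results of these data known, and Malat1 had been seen to differ between libraries, so their levels are given as descriptions without tests. Malat1 is an abundant RNA of nuclear speckles, the bodies that store splicing factors. Neat1 is the scaffold of paraspeckles, nuclear bodies built around its long isoform. Kcnq1ot1 is transcribed antisense to Kcnq1, an imprinted gene, from the paternal chromosome, and is known for silencing neighbouring genes in cis.

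The study took cells from the whole brain without the cerebellum of 5-month-old C57BL6J females, sorted by FACS for Cd11b, an integrin chain on the surface of microglia and blood-derived myeloid cells. The 3 groups in the labels were untreated mice (Ctrl, 1 animal), mice fed PLX5622 at 1200 mg/kg for 14 days (D0, 2 animals, combined) and, as D2, 1 animal with the same 14 days of PLX5622 and then 2 days of control diet. PLX5622 inhibits Csf1r, a receptor that microglia need to survive, and the diet reaches other Csf1r-expressing cells as well. Transcripts were counted as unique molecular identifiers (UMIs) with 10x Genomics 3′ v2 reagents. The barcodes ended in 1, 2 or 3, and no source used here ties these numbers to Ctrl, D0 or D2. They are called library 1, 2 and 3, their values are set side by side, and no comparison of the study's groups was made. With 1 library per group there are no replicates, and every interval is an exact 95% interval of counting error only.

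The libraries held 1263, 599 and 287 cells, with 6410990, 4022293 and 2831118 UMIs and median depths of 3662, 6188 and 8172 UMIs per cell. They shared 0 cell barcodes. After filtering, 2137 cells remained, in 14 clusters made without the 3 RNAs, of which 11 held at least 20 cells. Of the cells of library 1, 86.1% were microglia-like, compared with 11% for library 2 and 1.76% for library 3. The sort also held neutrophil-like, monocyte-like, dendritic-cell-like and NK-like cells, which made up most of libraries 2 and 3. The border-associated-macrophage-like cluster passed the marker rule for all 10 microglia genes too. Because the libraries differ in makeup and depth, results are given within a cluster and a library. A cluster of 1 library is called a profile, and 20 profiles had at least 20 cells.

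In the GENCODE M21 annotation of GRCm38, Malat1 (ENSMUSG00000092341) is a lincRNA gene on chromosome 19, 5795690 to 5802672, minus strand. Neat1 (ENSMUSG00000092274) lies 22035 bases away, at 5824708 to 5845478 on the same strand. Kcnq1ot1 (ENSMUSG00000101609) lies on chromosome 7, 143203458 to 143296549, minus strand, and all of its 93092 bases fall inside the span of Kcnq1 on the opposite strand. Kcnq1 had 1 UMI in all cells used. Whether counting used strand is not given in the sources used here, and how reads of the partners were assigned was not checked. The counts are per gene and do not separate the long Neat1 transcript (20771 bases) from the short one (3004 bases).

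The 3′ ends are shown because these libraries are primed with oligo(dT), which binds runs of A. As background, the main Malat1 transcript and long Neat1 are not closed by a normal poly(A) tail. RNase P cuts them just downstream of an A-rich stretch, which folds back on upstream U-rich motifs into a triple helix. In the Malat1 processing region and the long Neat1 end, capitals mark U-rich motifs and the A-rich stretch (U written as T). In the 3 annotated or short ends they mark the poly(A) signal AATAAA, and in the last line the longest A run of Kcnq1ot1. All lines are transcript sequence on GRCm38, 5′ to 3′.
Malat1 processing region, chr19:5795973-5796072 (minus): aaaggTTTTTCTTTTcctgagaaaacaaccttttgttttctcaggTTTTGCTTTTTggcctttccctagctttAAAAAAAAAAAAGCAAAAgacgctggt
Malat1 annotated end, chr19:5795690-5795749 (minus): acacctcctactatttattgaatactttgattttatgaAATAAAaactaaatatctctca
Neat1 long transcript end, chr19:5824708-5824807 (minus): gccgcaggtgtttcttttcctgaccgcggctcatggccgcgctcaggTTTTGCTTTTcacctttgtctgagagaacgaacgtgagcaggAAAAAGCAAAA
Neat1 short transcript end, chr19:5842307-5842366 (minus): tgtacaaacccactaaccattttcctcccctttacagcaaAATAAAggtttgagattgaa
Kcnq1ot1 annotated end, chr7:143203458-143203517 (minus): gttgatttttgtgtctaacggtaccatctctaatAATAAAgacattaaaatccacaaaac
Kcnq1ot1 longest A run, chr7:143226915-143227015 (minus): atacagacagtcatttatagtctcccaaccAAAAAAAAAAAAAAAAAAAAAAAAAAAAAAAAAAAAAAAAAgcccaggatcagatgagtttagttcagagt

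The motifs AAAAAGCAAAA and TTTTGCTTTT were read from the long Neat1 end, so its own matches were fixed in advance. The main Malat1 transcript also holds 1 copy of each. Kcnq1ot1 holds 0 copies of AAAAAGCAAAA and 1 of TTTTGCTTTT in its 93092 bases. Among 122312 GENCODE transcripts of at least 400 bases, the last 400 bases held AAAAAGCAAAA on either strand in 0.217% and TTTTGCTTTT in 0.604%. A run of at least 10 A or 10 T was in 5.89% of the same windows. AATAAA on either strand was in the last 60 bases of 33.7% of them. Such runs of A number 1 in the main Malat1 transcript, 298 bases from its annotated end, 0 in both main Neat1 transcripts and 10 in Kcnq1ot1, the longest of 41 bases. These matches describe the letters only, and the deposited counts do not show where on a transcript a UMI began.

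Malat1 was among the 3 most counted genes of every library. It had 230720 UMIs in library 1, where only Cst3, a secreted protease inhibitor of microglia, had more. It had 83245 UMIs in library 2 and 32358 in library 3, behind the actin-binding peptide gene Tmsb4x and Cd74, the MHC class II chaperone. Neat1 had 647, 863 and 385 UMIs, and Kcnq1ot1 had 273, 94 and 122. Malat1 could therefore be followed cell by cell, and Neat1 and Kcnq1ot1 mainly as sums over cells.

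In the cells used, the median cell gave 3.74% of its UMIs to Malat1 in library 1 (quartiles 2.83 to 4.85), 1.86% in library 2 (1.25 to 3.37) and 1.32% in library 3 (0.584 to 2.28). As UMIs per cell the medians were 137, 113.5 and 95.5. The libraries therefore lay closer together in Malat1 UMIs per cell than in Malat1 share. At 2000 to 6000 UMIs per cell, a range chosen after seeing the data, the median shares were 3.89%, 2.76% and 2.45%. The distance between libraries 2 and 3 and library 1 was smaller there.

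Over the 20 profiles the median Malat1 share ran from 0.803% to 4.04%, a 5.03-fold range. The marks of 3% and 2% used below only order the profiles, and whether these form separate sets was not tested. Of the profiles, 8 lay above 3% and 10 below 2%. All but 1 of the microglia-like profiles, the border-associated-macrophage-like, the NK-like and the Ccr7 dendritic-cell-like profiles were above 3%. The monocyte-like, neutrophil-like and Cd209a dendritic-cell-like profiles, and those of an unnamed cluster led by the cell cycle genes Birc5 and Ube2c, were all below 2%.

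Among microglia-like cells, the cluster led by the purinergic receptor genes P2ry13 and P2ry12 had a median of 4.04% in library 1 (559 cells, quartiles 3.15 to 5.17) and 3.48% in library 2 (36 cells). The cluster whose leading genes include Hes1, a transcriptional repressor, had 3.82% in library 1 (342 cells). The cluster led by Spp1, a secreted phosphoprotein, and the cytokine gene Il1a had 3.45% in library 1 (185 cells) and 1.94% in library 2 (24 cells). That last value was the lowest of a microglia-like profile, and the quartiles of its cells (1.44 to 2.38) lay below those of the same cluster in library 1 (2.63 to 4.28). Its cells were also deeper, at 7334 against 6022 UMIs, and had more mitochondrial UMIs, at 2.06% against 1.22%. The part of either in the share was not tested.

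NK-like cells had nearly the same share in each library. Their medians were 3.54% in library 1 (13 cells), 3.72% in library 2 (79 cells) and 3.42% in library 3 (33 cells), and their quartiles overlapped. Their median depth was also alike in libraries 2 and 3, at 3092 and 3002 UMIs.

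Dendritic-cell-like clusters differed from each other within library 2. Cells led by Cd209a, a lectin gene, and Mgl2 gave 1.30% (184 cells, quartiles 1.02 to 1.64), and cells led by Ccr7, the chemokine receptor of migrating dendritic cells, gave 3.89% (54 cells, quartiles 2.65 to 5.28). The quartile ranges did not overlap. Here depth did not separate the clusters, with medians of 8197.5 and 7145.5 UMIs, and the cells held 108.5 and 298 Malat1 UMIs at the median. The Cd209a cluster had 1.63% in library 1 and 0.989% in library 3.

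Monocyte-like, neutrophil-like and Birc5 and Ube2c cells had their lowest shares in library 3. Monocyte-like cells, led by Fn1, Plac8 and Ly6c2, had 1.40% in library 2 (47 cells) and 0.828% in library 3 (55 cells). Neutrophil-like cells, led by granule genes such as Ngp and Camp, had 2.34% in library 1 (14 cells), 1.84% in library 2 (89 cells) and 0.864% in library 3 (28 cells). The cluster led by Birc5 and Ube2c had 1.04% in library 2 (21 cells) and 0.803% in library 3 (56 cells), the lowest of all profiles. An unnamed cluster led by the endothelial genes Cldn5 and Flt1 and by Cd300e lay in between, at 2.95% in library 2 and 2.56% in library 3.

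**Figure D1:**
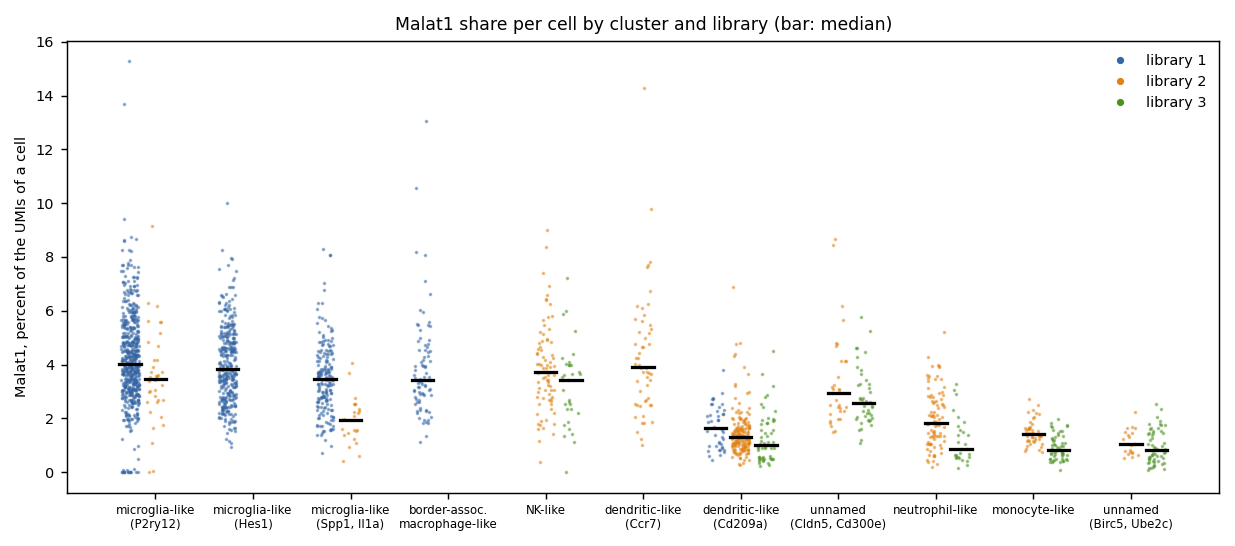
Each point is a cell and each black bar the median, for clusters (horizontal axis) with at least 20 cells in a library (colours); the vertical axis is the percent of the UMIs of a cell that are Malat1. The medians run from 0.803% in library 3 for the cluster led by Birc5 to 4.04% in library 1 for the P2ry12 cluster, and a small set of cells lies at 0.

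The order of the profiles went in part with depth. Across the 20 profiles the Spearman rho of the median share with the median depth was -0.64 (profiles share libraries, and share and depth have the UMI total in common). The median Malat1 UMIs per cell ran from 39 in neutrophil-like cells of library 3 to 305.5 in border-associated-macrophage-like cells of library 1, and their rho with depth was 0.33. Fewer Malat1 molecules per cell and more of all other RNA cannot be told apart by a share. The monocyte-like profiles, at 67 and 79 UMIs per cell, and the neutrophil-like profile of library 3, at 39, were low in UMIs per cell too, but the neutrophil-like profile of library 2 held 113. By contrast, the cycling-gene-led profiles held 137 and 143 UMIs per cell, above the 117 of the P2ry12 microglia-like profile in library 1.

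Within a profile, deeper cells held more Malat1 UMIs and a lower Malat1 share. When the cells of each profile were put in 3 depth bins of equal size, the deepest bin had a lower median share than the shallowest in 17 of 20 profiles and more Malat1 UMIs in 19 of 20. The median ratio of deepest to shallowest was 2.21 for depth, 1.74 for Malat1 UMIs and 0.751 for the share. In P2ry12 microglia-like cells of library 1 the bins had median shares of 5.15%, 4.11% and 3.17% at depths of 2218, 2830 and 3925 UMIs, and 109, 116 and 125 Malat1 UMIs. Malat1 UMIs thus changed little over that range of depth. In Spp1 microglia-like cells the shares were 3.51%, 2.99% and 3.50% at 3751, 6022 and 11387 UMIs, with no steady fall. Over single cells the rho of share with depth was negative in 20 of 20 profiles, from -0.71 to -0.03 with a median of -0.27.

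**Figure D2:**
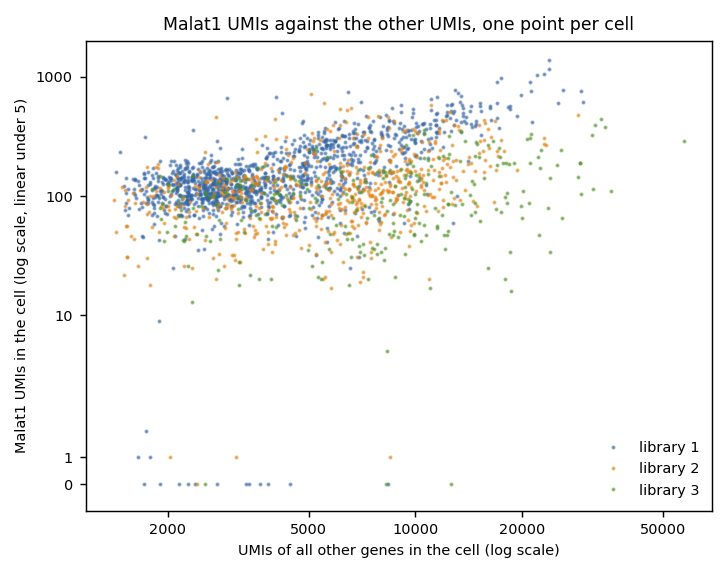
Each point is a cell of the 2137 used, with the UMIs of all other genes on a logarithmic horizontal axis and Malat1 UMIs on a vertical axis that is logarithmic above 5. Malat1 UMIs are higher in deeper cells, with a wide spread at any depth, and 16 cells sit at 0.

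Between libraries 2 and 3, Malat1 was lower in library 3 in each of the 6 clusters with 20 cells in both. The log2 ratio of its counts per 1e6 UMIs (CPM, from summed counts) ran from -0.70 in neutrophil-like to -0.25 in NK-like cells, while the median of all genes tested in a cluster ran from -0.21 to 0.16. No ratio of Malat1 passed 2-fold. The share of genes tested that were lower past 2-fold was 5.87% in the Birc5 and Ube2c cluster, 2.44% in monocyte-like, 12.1% in neutrophil-like, 2.25% in Cd209a dendritic-cell-like, 1.02% in NK-like and 6.79% in Cldn5 and Cd300e cells. The share higher past 2-fold was, in the same order, 13.6%, 2.86%, 3.29%, 3.66%, 1.52% and 4.32%. Between 7.60% and 22.7% of genes tested had a lower ratio than Malat1. Xist, the RNA that coats the inactive X chromosome and also stays in the nucleus, was lower in library 3 in 3 of the 6 clusters and higher in 3. Between libraries 1 and 2, Malat1 was lower in library 2 in each of 3 clusters, with log2 ratios from -0.95 to -0.23, and Xist in each of the 3, from -0.69 to -0.44. None passed 2-fold. In the P2ry12, Spp1 and Cd209a clusters 9.77%, 12.5% and 4.64% of genes tested were lower in library 2 past 2-fold and 2.82%, 3.26% and 2.25% higher. The median of all genes tested was -0.11, -0.15 and -0.07 in the same order. Of genes tested, 35.5%, 14.0% and 35.8% had a lower ratio than Malat1. These are differences between single libraries with no replicate check.

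Neat1 followed another order than Malat1. Its level over the 20 profiles ran from 51.2 to 387 CPM, and the P2ry12 microglia-like profile of library 1, which had the highest Malat1 share, had the lowest Neat1 level. Across profiles Pearson's r of the log2 levels of Malat1 and Neat1 was -0.20 (rho -0.17), and that of Neat1 and Xist was -0.72.

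In library 1 Neat1 had 51.2 CPM (41.2 to 62.8, 91 UMIs) in P2ry12 microglia-like cells and 72.4 CPM (60.5 to 86.0) in the Hes1 cluster. It reached 130 CPM (111 to 151) in the Spp1 cluster and 150 CPM (125 to 178) in border-associated-macrophage-like cells. The first 2 microglia-like intervals overlapped narrowly, and the Spp1 cluster lay above both. Cells of the Spp1 cluster were deeper than P2ry12 cells, at 6022 against 2830 UMIs, and the part of depth was not tested. Over the 3 depth bins, shallowest first, Neat1 had 52.7, 53.3 and 49.2 CPM in P2ry12 cells. In Spp1 cells it had 111, 173 and 114 CPM, and in border-associated-macrophage-like cells 357, 154 and 98.2 CPM. After each cell was thinned to 2000 UMIs, Neat1 was seen in 8.57% of P2ry12 cells (43 of 502; 11.4% before thinning) and 18% of Spp1 cells (33 of 183; 44.9% before).

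In the other classes Neat1 ranged from 101 to 387 CPM over profiles of at least 20 cells. For monocyte-like cells it was 343 CPM (278 to 419) in library 2, against 175 CPM (144 to 211) in library 3. Neutrophil-like cells had 259 CPM (221 to 302) and 224 CPM (158 to 307) there, and in library 1, over 14 cells, 304 CPM (186 to 470). The Cldn5 and Cd300e cluster had the highest level, 387 CPM (278 to 525), in library 2 but only 163 CPM (109 to 235) in library 3. Cd209a dendritic-cell-like cells had 193, 209 and 112 CPM in libraries 1, 2 and 3, and Ccr7 cells 202 CPM in library 2. The NK-like level was 122 CPM in library 2, nearly the same as the 118 CPM of library 3, and the Birc5 and Ube2c cluster 111 and 101 CPM.

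Neat1 was lower in library 3 than in library 2 in 5 of 6 clusters, with log2 ratios from -1.23 to 0.01. The intervals of the 2 libraries did not overlap in monocyte-like cells, Cd209a dendritic-cell-like cells and the Cldn5 and Cd300e cluster. Only in the last did Neat1 pass 2-fold, where 6.79% of genes tested were lower past 2-fold. That unnamed cluster was led by endothelial genes and Cd300e, and some monocyte markers passed the marker rule in it too. It may hold several cell types, and whether their mix differed between the libraries was not tested. Overlapping intervals were found in neutrophil-like, NK-like and Birc5 and Ube2c cells. In monocyte-like cells, 17 of the 97 Neat1 UMIs of library 2 lay in 1 cell, and 12 of the 109 of library 3. Their median depth was 5157 UMIs in library 2 and 9370 UMIs in library 3. Over the 3 depth bins of library 2, shallowest first, Neat1 had 605, 292 and 268 CPM in them. The part of depth and of single cells in the difference was not tested.

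Kcnq1ot1 was rare, with 9.52 to 76.4 CPM over the 20 profiles and at most 11 UMIs in a cell. It was highest in NK-like cells of library 2 (76.4 CPM, 46.7 to 118, 20 UMIs) and lowest in Ccr7 dendritic-cell-like cells of library 2 (9.52 CPM, 2.59 to 24.4, 4 UMIs). P2ry12 microglia-like cells of library 1 had 53.4 CPM (43.2 to 65.3). The Hes1 cluster had 40.7 CPM (31.9 to 51.1), the Spp1 cluster 31.4 CPM (22.6 to 42.4) and border-associated-macrophage-like cells 51.6 CPM (37.5 to 69.3), with overlapping neighbours. Within library 1 the Spp1 cluster therefore had more Neat1 and less Kcnq1ot1 in summed CPM than the P2ry12 cluster, beyond counting error for both. In cells thinned to equal depth, Kcnq1ot1 was seen in 8.76% of P2ry12 cells (6.44 to 11.6) and 6.01% of Spp1 cells (3.04 to 10.5). These intervals overlapped, so less Kcnq1ot1 at equal depth was not shown. From the shallowest to the deepest bin, Kcnq1ot1 had 47.6, 66.6 and 48.0 CPM in P2ry12 cells. In Spp1 cells it had 8.88 (2 UMIs), 32.4 and 37.7 CPM.

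Kcnq1ot1 was the only one of the 3 RNAs with a higher level in library 3 than in library 2 in a cluster beyond counting error. In the Birc5 and Ube2c cluster it had 54.8 CPM (41.3 to 71.4, 55 UMIs) in library 3 and 11.1 CPM (2.30 to 32.5, 3 UMIs) in library 2, where 13.6% of genes tested were higher past 2-fold. Monocyte-like cells had 45.0 CPM (29.9 to 65.0, 28 UMIs, 11 of them in 1 cell) and 14.2 CPM (3.86 to 36.2), which overlap. Kcnq1ot1 was higher in library 3 in 4 of 6 clusters and lower in NK-like and Cldn5 and Cd300e cells. After thinning to 2000 UMIs it was seen in 7.9% of cells of library 1, 5.0% of library 2 and 6.8% of library 3.

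**Figure D3:**
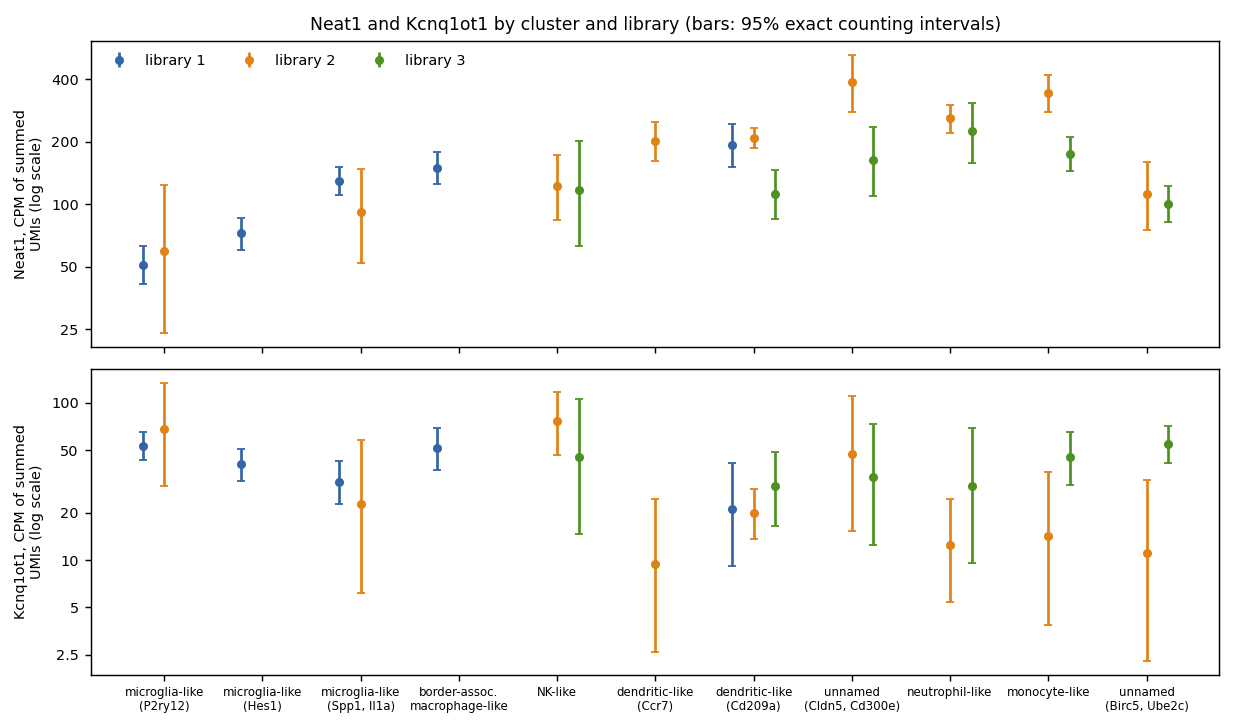
Points are CPM of summed UMIs (logarithmic vertical axes) for Neat1 above and Kcnq1ot1 below, by cluster and library (colours), with exact 95% counting intervals as bars. Neat1 is lowest in the P2ry12 microglia-like cluster (51.2 CPM in library 1) and highest in the Cldn5 and Cd300e cluster (387 CPM in library 2), while Kcnq1ot1 stays between 9.52 and 76.4 CPM with wide bars.

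The genes whose level over the 20 profiles was most like that of Malat1, among 3085 genes with at least 500 UMIs, were Dok1, an adaptor of tyrosine kinases (r = 0.88), Prex1 (0.87), the translation factor Eif4a2 (0.86), Ankrd12 (0.86) and Ddx5, an RNA helicase (0.85). Dok1 ran from 22.5 to 168 CPM and Ddx5 from 453 to 1056 CPM. Least like it were the actin-capping genes Capg (r = -0.88) and Gsn (-0.86), then Emb (-0.81), Cfp (-0.80) and Dbi (-0.80). For Neat1 the most alike were Lmo4 (0.80), Ifitm2 (0.80), Sirpb1c (0.80), Samhd1 (0.78) and Rilpl2 (0.78). These genes were picked for their r out of 3085, over profiles that share libraries.

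Among fixed lists, 16 of 20 genes for nuclear speckle and splicing proteins had a positive r with Malat1 (median 0.46) and 17 of 20 a negative r with Neat1 (median -0.25). Of all 3085 genes, 55.7% had a positive r with Malat1 (median 0.07) and 60.5% a negative r with Neat1 (median -0.14). Son, a speckle core protein, had r = 0.74 with Malat1 and -0.52 with Neat1. Rbm39 and Srsf5, both splicing factors, had 0.72 and 0.66 with Malat1. Of 11 paraspeckle protein genes with at least 500 UMIs, 9 had a positive r with Malat1, and 10 a negative r with Neat1. Sfpq had r = -0.61 and Hnrnpk -0.65 with Neat1. In the Kcnq1 imprinted domain, Nap1l4 had r = 0.60 and Cd81 0.20 with Kcnq1ot1. Next to Malat1 and Neat1, Slc25a45 had r = 0.41 with Malat1 and -0.60 with Neat1. Dpf2 had 0.54 and -0.18, and Ehbp1l1 went the other way with -0.06 and 0.50, in the same order.

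A small set of cells held no Malat1 at all. Of 2137 cells, 16 had 0 Malat1 UMIs, 8 had 1 to 10, and the next cell had 13. The 16 cells had depths of 1717 to 12632 UMIs with a median of 3039, so they were not the shallowest. They held 0 Neat1 and 0 Kcnq1ot1 UMIs, and 2 Xist UMIs among 66070 UMIs. Of them, 12 were P2ry12 microglia-like cells of library 1, 1 and 2 were of the same cluster in libraries 2 and 3, and 1 was NK-like in library 3. The 2 cells of library 3 were all that this cluster had there.

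The 12 cells of library 1 were set beside the other 547 of their cluster. They had 0 Malat1 UMIs of 40177, which allows up to 74.7 CPM for a count of 0, and the rest had 42174 CPM with the 3 RNAs left out of the total. Xist stood at 24.9 CPM (0.630 to 139, 1 UMI) and at 2133 CPM (2063 to 2204) in the rest, where 95.6% of cells had a UMI of it. For Neat1 and Kcnq1ot1 the limit of 74.7 CPM lies above the 54.6 and 56.9 CPM of the rest, so their absence was not detectable at this depth. Median depth was 3039 against 2830 UMIs, genes per cell 1024.5 against 1268, and mitochondrial UMIs 2.05% against 1.07%.

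Summed messenger RNAs of several gene lists also differed in these 12 cells. Of 4237 genes tested, 12% were higher past 2-fold and 16.1% lower. These percentages cannot show a difference, because the 12 cells held 40177 UMIs and the rest 1738524. With 1 UMI added to each sum, a gene near the minimum count could pass 2-fold higher on very few UMIs. Such a gene could not pass 2-fold lower even with no UMI in the 12 cells. The same limit applies to low-count genes in the lists below. Speckle and splicing genes had 1518 CPM in sum (1161 to 1950) against 4521 CPM in the rest, and 11 of 20 were lower past 2-fold, with a median log2 ratio of -1.12 against -0.09 for all genes. Immediate early genes, which respond within minutes to stimulation and tissue dissociation, had 1518 CPM against 8110 CPM, and 11 of 16 tested were lower past 2-fold. Cytoplasmic housekeeping genes such as Actb and Fth1 had 84128 CPM against 47571 CPM, and 4 of 15 were higher past 2-fold. The 10 microglia markers had 16751 CPM against 42506 CPM in sum, and 9 were lower past 2-fold. NK markers had 149 CPM (54.8 to 325, 6 UMIs) against 8.39 CPM, and their part in the result was not tested.

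Low Malat1 was most frequent in library 3, where 52 of 284 cells (18.3%, 14.0 to 23.3) had a share under 0.5%. The shares were 1.51% of cells in library 1 (0.910 to 2.34) and 2.70% in library 2 (1.55 to 4.35). Of the 52, 16 were in the Birc5 and Ube2c cluster, 14 in the monocyte-like and 13 in the Cd209a dendritic-cell-like cluster. Unlike the cells at 0, all 43 of these held Malat1, and their depth was 19378.5, 8663 and 9968 UMIs at the median against 14511.5, 9474 and 8114 UMIs in the rest of each cluster.

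Xist was lower in the low-Malat1 cells of each of these clusters. It had 524 CPM (452 to 604) against 1184 CPM in the Birc5 and Ube2c cluster, 395 CPM (295 to 518) against 589 CPM in monocyte-like cells and 475 CPM (368 to 603) against 1049 CPM in Cd209a cells. Only the first and last passed 2-fold. Of genes tested, 5.12%, 2.96% and 1.98% were lower past 2-fold and 2.87%, 1.89% and 2.48% higher. Neat1 had 78.0 against 115, 129 against 190 and 106 against 117 CPM, with overlapping intervals in each.

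To see what else varied with Malat1, the 20% of cells with the highest and the 20% with the lowest Malat1 share were compared in each class of at least 50 cells in a library, 8 comparisons in all. Levels are CPM with the 3 RNAs left out of the total. In microglia-like cells of library 1 the 217 highest cells had a median share of 6.05% and the 217 lowest 2.20%, the difference that chose them. Of 4235 genes with at least 50 UMIs, 3.64% were higher past 2-fold in the highest cells and 0.638% lower, and the median log2 ratio of all genes was 0.21.

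Over the whole class the other nuclear RNAs were higher in the high-Malat1 cells. Neat1 had 105 CPM (80.4 to 134) in the highest and 57.2 CPM (44.3 to 72.6) in the lowest cells, a log2 ratio of 0.87. Kcnq1ot1 had 63.1 CPM (44.7 to 86.7) and 29.9 CPM (20.8 to 41.5), a log2 ratio of 1.08, above that of 97.7% of genes tested. Xist had 2678 CPM (2549 to 2812) and 1539 CPM (1469 to 1612), a log2 ratio of 0.80. The intervals did not overlap for any of the 3. The highest cells were shallower, at 2439 against 4876 UMIs, and had 0.829% against 1.44% mitochondrial UMIs. Among cells of 2000 to 6000 UMIs the log2 ratios were 0.61, 1.59 and 0.72, with depths of 2482 and 4159 UMIs. The approximate 95% interval of the Neat1 ratio there ran from just below 0 to 1.22, and the part of depth was not tested beyond this.

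The high and low sets of these microglia-like cells drew on 3 clusters in unequal parts. The highest cells were 137 P2ry12, 65 Hes1 and 15 Spp1 cells, and the lowest 85, 77 and 55. The comparison was therefore repeated within each cluster, a step added after seeing the data. Neat1 was higher in the high-Malat1 cells of each cluster, with 103 against 41.5 CPM in the P2ry12, 108 against 36.2 CPM in the Hes1 and 184 against 97.1 CPM in the Spp1 cluster. Its intervals overlapped only in the last. Xist was higher in each of the 3 clusters too, with log2 ratios of 0.91, 0.77 and 0.59 in the same order. The lowest P2ry12 cells include the 12 with 0 Malat1 UMIs described above, which held 1 Xist UMI. The part of those cells in the ratios was not tested. For Kcnq1ot1 the direction turned: it had 81.3 CPM (48.2 to 128) against 19.3 CPM (8.33 to 38.0) in the Hes1 cluster, but 18.9 against 44.5 CPM in the Spp1 cluster. There, and in the P2ry12 cluster (43.6 against 34.6 CPM), its intervals overlapped.

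Genes for speckle and splicing proteins were higher in the highest cells in 20 of 20, with a median log2 ratio of 0.64, and 3 passed 2-fold; of all genes, 68.4% were higher. Son had 796 against 471 CPM, Rbm39 872 against 600 CPM and Srsf5 454 against 332 CPM. Of 13 paraspeckle protein genes tested, 12 were higher and their median was 0.20, close to that of all genes; Hnrnpk had 540 against 517 CPM and Sfpq 186 against 142 CPM. Housekeeping genes were lower in 13 of 15, with a median of -0.42. Tmsb4x had 13251 against 17696 CPM, and the ferritin genes Fth1 and Ftl1 4355 against 6136 CPM and 4260 against 5858 CPM. All 10 microglia markers were higher, with a median of 0.48. The genes tested for Malat1 end processing and RNA surveillance were Rbm7 (68.1 against 64.8 CPM), Pop5 (51.5 against 37.5 CPM) and Rpp21, a protein of RNase P (53.2 against 31.6 CPM).

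Immediate early genes were higher in 10 and lower in 8 of 18 tested, with Jun at 3017 against 2052 CPM, Junb at 2846 against 3624 CPM and Ier5 at 1816 against 1409 CPM. Of the neighbours of Malat1 and Neat1, Slc25a45 had 156 against 77.6 CPM, Frmd8 51.5 against 40.9 CPM and Dpf2 46.5 against 47.8 CPM. In the Kcnq1 domain Cd81 had 4880 against 4297 CPM, Nap1l4 99.7 against 73.4 CPM and Cars 41.5 against 33.3 CPM. Of other non-coding RNAs, Gm42418 had 76.4 against 82.7 CPM and Snhg12 38.2 against 42.7 CPM. No proliferation gene reached 50 UMIs in the 2 sets together.

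The extremes of that comparison rested in part on few cells. The highest ratios were those of Vtn, Sik2 (69.8 against 18.8 CPM), Zfp398 (54.8 against 16.2 CPM), Cspp1 (71.5 against 22.2 CPM) and Proser1 (54.8 against 17.1 CPM). Vtn had 112 UMIs in 3 of the 217 highest cells, 79 of them in 1 cell, and 1 UMI in the lowest. The lowest ratios were those of H2-Eb1, Cd74, H2-Aa and H2-Ab1, which present antigen on MHC class II, and Gm17056 (9.97 against 80.2 CPM). Cd74 had 26 UMIs in the highest and 783 in the lowest cells, of which 477 were in 1 cell, and H2-Eb1 had 7 and 232, with 136 in 1 cell. Gm17056 had its 94 UMIs spread over 46 of the lowest cells.

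Over the 8 comparisons Xist was higher in the high-Malat1 cells in 8 of 8, with log2 ratios of 0.18 to 2.39, and past 2-fold in 3. The summed dendritic cell markers were higher in 8 of 8 as well. They had 1181.5 CPM (89 UMIs) against 1 UMI in neutrophil-like cells of library 2 and 493 CPM (45 UMIs) against 1 UMI in monocyte-like cells of library 3. Their part in the result was not tested. The share of genes higher past 2-fold was 4.8% in border-associated-macrophage-like cells of library 1, and in library 2 5.99% in NK-like, 15% in dendritic-cell-like and 3.69% in microglia-like cells. The share lower was 1.52%, 5.99%, 13.8% and 10.5% in the same order. It was 11.7% in neutrophil-like cells of library 2, and 13.9% in dendritic-cell-like and 3.22% in monocyte-like cells of library 3. In neutrophil-like cells of library 2 Xist had 969 against 177 CPM, but there 49.5% of 376 genes were higher past 2-fold and the median of all genes was 0.96. In dendritic-cell-like cells of library 3, Xist had 1219 against 494 CPM, with 2.54% of genes higher past 2-fold, and in monocyte-like cells of library 3 788 against 367 CPM, with 4.24%. Intervals of Xist overlapped in NK-like, dendritic-cell-like and microglia-like cells of library 2.

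The dendritic-cell-like sets also differed in their clusters. In library 2 the 47 highest cells were 38 Ccr7 and 9 Cd209a cells, and all 47 lowest were Cd209a cells. In library 3 the 11 highest cells were 2 Ccr7 and 9 Cd209a cells, and all 11 lowest were Cd209a cells. Within the Cd209a cluster alone, added after seeing the data, Xist had 731 against 744 CPM in library 2, a turned direction with overlapping intervals, and 1341 against 466 CPM in library 3. In microglia-like cells of library 2, 11 of the 13 highest cells were P2ry12 and 9 of the 13 lowest Spp1 cells, and the part of that in the result was not tested.

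Neat1 was higher in high-Malat1 cells in 6 of 8 comparisons. It reached 50 UMIs in 3, all higher. In border-associated-macrophage-like cells of library 1 it had 343 CPM (248 to 462) against 108 CPM (63.1 to 173), but 18 of the 43 UMIs of the 16 highest cells lay in 1 cell. Without that cell, a step added after seeing the data, the highest cells had 206 CPM (134 to 305), which overlaps the lowest, and the log2 ratio was 0.90 in place of 1.61. Dendritic-cell-like cells of library 2 had 266 against 161 CPM, and within their Cd209a cluster Neat1 had 284 CPM (224 to 356) against 144 CPM (104 to 193). Microglia-like cells of library 2 (71.4 against 122 CPM) and monocyte-like cells of library 3 (131 against 135 CPM) went the other way, with overlapping intervals. Summed speckle genes were higher in 5 of 8 and housekeeping genes in 4 of 8 comparisons, so the split seen in microglia-like cells of library 1 was not general.

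**Figure D4:**
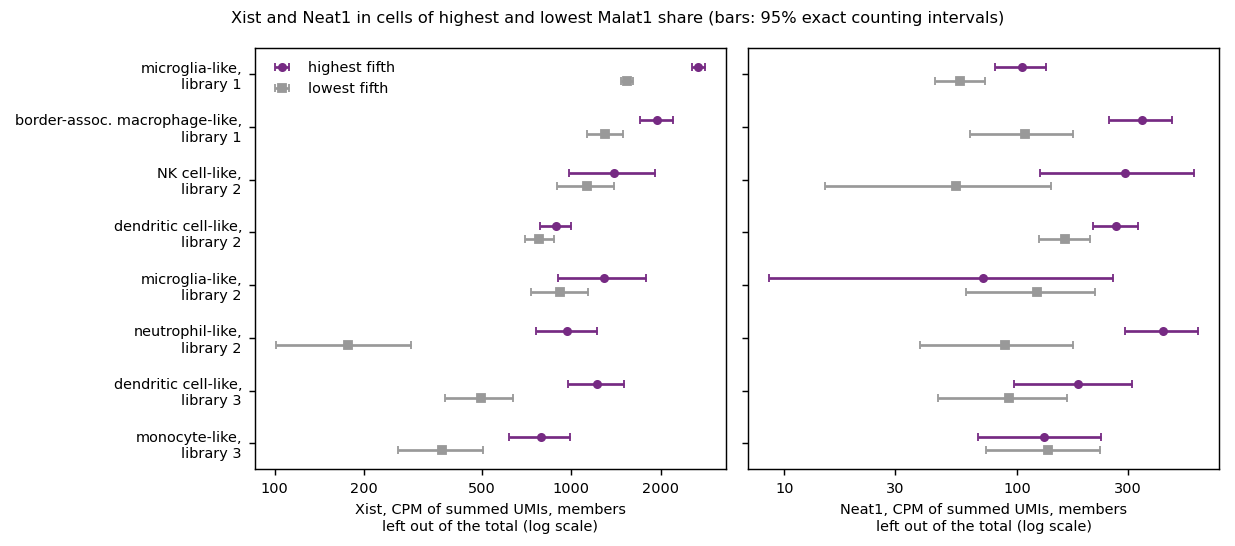
CPM of summed UMIs (logarithmic horizontal axes) of Xist, left, and Neat1, right, in the 20% of cells with the highest (purple circles) and the lowest (grey squares) Malat1 share of each class and library, with exact 95% counting intervals. Xist is higher in the high-Malat1 cells in 8 of 8 comparisons, and Neat1 in 6 of 8.

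Cycling state was read from 20 proliferation genes: a cell thinned to 2000 UMIs that held UMIs of at least 3 of them was called cycling. There were 79 such cells, 52 in library 3 and 24 in library 2, and 42 and 20 of these were in the Birc5 and Ube2c cluster, whose genes such as Top2a and Nusap1 belong to that list. Over all cells of library 3 the median Malat1 share was 0.910% in cycling and 1.38% in other cells, and in library 2 1.05% and 1.84%. The cycling cells were deeper, at 14276.5 against 6974.5 UMIs in library 3. At 8000 to 16000 UMIs, a range chosen after seeing the data, the shares in library 3 were 1.38% in 27 cycling and 0.896% in 70 other cells, the opposite order, and in library 2 1.02% and 1.48%.

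Within the Birc5 and Ube2c cluster of library 3 cycling cells held more Malat1 than the others. The 42 cycling cells had a median share of 1.04% (quartiles 0.559 to 1.58) and 175.5 Malat1 UMIs, and the 14 others 0.518% (0.273 to 0.706) and 82 UMIs. The log2 ratio of summed levels was 1.04 for Malat1, against a median of 0.02 for all genes, where 4.26% of genes were higher past 2-fold and 2.71% lower. Xist had a log2 ratio of 0.60 and Neat1 of 0.78, with 114 CPM (90.9 to 141) against 63.9 CPM (37.2 to 102). Kcnq1ot1 went the other way, with 46.1 CPM (31.9 to 64.4) against 78.9 CPM (48.9 to 121), and its intervals and those of Neat1 overlapped.

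Depth and mitochondrial share moved with this difference. Median depth was 15051.5 UMIs in the cycling and 18058.5 UMIs in the other cells, and mitochondrial UMIs were 1.52% and 2.33%. At 8000 to 16000 UMIs the shares were 1.44% in 21 cycling and 0.680% in 5 other cells. Under a naming of single cells in place of clusters, the class of library 3 with the most cycling cells had 0.980% in cycling and 1.61% in other cells. That is the opposite order, but the class is set by marker genes and is not the Birc5 and Ube2c cluster. In the same cluster of library 2, 20 of 21 cells were cycling, with 1.05%, near the cycling cells of library 3.

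**Figure D5:**
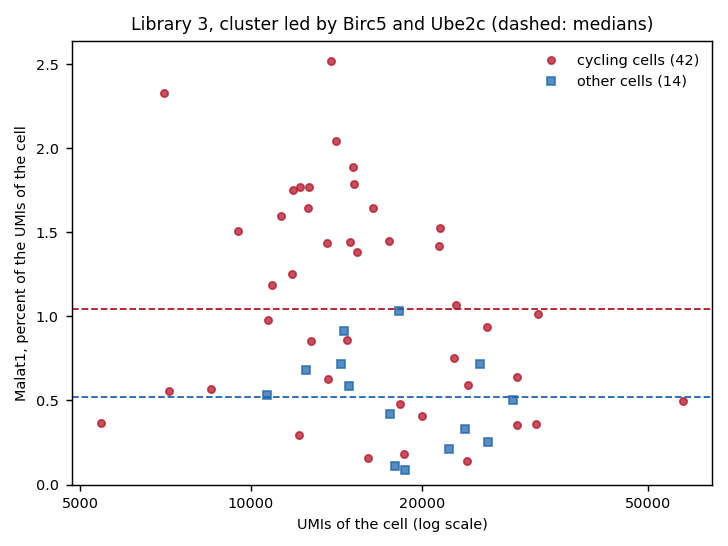
Each point is a cell of the Birc5 and Ube2c cluster in library 3, with its UMIs on a logarithmic horizontal axis and its Malat1 share on the vertical axis; red circles are cycling cells, blue squares others, and dashed lines the medians of 1.04% and 0.518%. The shares of the 2 sets overlap.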

How the data were processed

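One table of UMI counts (27998 genes, 2149 cells) was deposited, made by the authors with Cell Ranger 2.0.1 on mm10, per the submitters' processing notes. Whether counting used strand is not given in the sources used here. Members and gene lists were chosen with earlier results of these data known. Cells with at least 500 genes and at most 10% mitochondrial counts were kept (5 failed). Scrublet in scanpy 1.11.5, at an expected 5%, marked 7 cells (0.326%, too few to show that it worked), leaving 2137. Clustering, with the 3 members left out, used 2000 variable genes, 30 components, 15 neighbours and Leiden resolution 0.5. A cluster of at least 20 cells was named from at least 3 markers, each in 0.3 of its cells and 2-fold enriched. At least 1 marker had to be among its 10 leading genes, or 0.5 of the list had to pass; this last condition was set after seeing the clusters. Detection and cycling used cells thinned to 2000 UMIs, which left out 106. Gene comparisons summed UMIs, took genes with at least 50 UMIs, added 1 UMI to each sum for log2 ratios, and called past 2-fold; no p-values were computed. Named genes were the 5 most and 5 least alike over profiles (log2 of CPM plus 10), the 5 highest and 5 lowest ratios in microglia-like cells of library 1, and the most counted members of each list, of which 1 is not reported here. Intervals are exact, at 95% (scipy 1.17.1), and a count of 0 allows 3 counts. The gene comparison was tested on simulated data. Sequences and annotation come from GENCODE M21 transcripts on GRCm38, with motifs searched on both strands. Of 23 other long non-coding RNAs listed, 14 were found in the table; the rest were not analysed here.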

Additional observations from a re-analysis of the deposited data

How the results depend on the processing

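Of 160 values recomputed under alternatives, 133 moved by less than the spread used for comparison, 25 moved by more and 2 changed sign. With members and mitochondrial genes out of the total, the Malat1 share of library 1 was 3.95%; as a percent of summed UMIs it was 3.60% in library 1 and 2.07% in library 2. As a mean over cells, Neat1 was 236 CPM in library 2 and 182 CPM in library 3. At 2000 to 6000 UMIs per cell, chosen after seeing the data, Malat1 was 3.89%, 2.76% and 2.45%, Neat1 282 and 216 CPM in libraries 2 and 3, and Kcnq1ot1 41.8 CPM in library 2. With at least 1000 genes per cell, Malat1 in library 2 was 3.89% in dendritic-cell-like and 3.35% in NK-like cells. The first class was then the 54 cells of the Ccr7 cluster alone. Of the Cd209a cells of library 2, 161 were then unnamed and 23 were named monocyte-like. With cells named one by one, Malat1 was 1.16% in dendritic-cell-like cells of library 2 and 1.36% in monocyte-like cells of library 3. The class of library 3 with the most cycling cells then had 1.61% in other and 0.980% in cycling cells. That order is opposite to the one in the Birc5 and Ube2c cluster, but the class is another set of cells. With the top and bottom 50% of microglia-like cells of library 1, 39 genes were higher past 2-fold (154 in the report) and the log2 ratio of Xist was 0.39. With a minimum of 20 UMIs, 495 genes were higher and 81 lower. Within single clusters, added after seeing the data, the microglia-like ratios of library 1 were 0.91 (P2ry12) and 0.59 (Spp1) for Xist, 1.55 (Hes1) for Neat1 and 0.37 (P2ry12), 1.98 (Hes1) and -1.04 (Spp1) for Kcnq1ot1. In the Cd209a cluster of library 2 the Xist ratio was -0.024. The cause of the other shifts was not tested. Cycling called without thinning left too few other cells for a value.

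No paired analysis was possible because each barcode number is 1 library and no label ties it to a group or replicate. Leaving out a replicate could not be done for the same reason. Depth limits Neat1 and Kcnq1ot1 to sums over cells.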

Other observations

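The 3 clusters under 20 cells stayed unnamed. One of 7 cells, led by Prss34, Mcpt8, Fcer1a and Cpa3, genes known from basophils and mast cells, had 2194 CPM of Neat1 (1675 to 2823, 60 UMIs). Its level was 1032 CPM in 1 cell of library 1, 1954 CPM in 4 cells of library 2 and 3756 CPM in 2 cells of library 3, against at most 387 CPM in the 20 profiles of the report. All 7 cells held Neat1, but 1 cell held 17 of its 32 UMIs in library 2 and 1 held 13 of 23 in library 3. The counting interval does not cover that spread between cells. The cluster was small. Its median Malat1 share was 1.96%. One of 9 cells, whose leading genes include Npy and Fabp7, had a median Malat1 share of 9.86%, with 12.3% in 4 cells of library 1 and 6.27% in 5 cells of library 2. Its median mitochondrial share was 5.11%, and the part of that in the result was not tested. One of 12 cells, led by Ttr and Enpp2, genes of the choroid plexus, had a Malat1 share of 2.88%.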
